A study of Mus musculus with 6 samples.

Results

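The interleukins and their receptors were taken from the myocardial array as every probe, controls left out, whose gene symbol begins with Il and a number. The array held 148 such probes of 82 genes, among 56605 probes and 27307 gene symbols in all. Of these genes, 39 encode ligands (62 probes), 40 encode receptor chains or decoy receptors (82 probes), and 3 encode neither (4 probes). The 3 are *Il18bp*, a soluble protein that binds IL-18, *Il4i1*, an amino acid oxidase, and *Il1bos*, an antisense transcript of the *Il1b* locus.

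Interleukins are secreted proteins that act on nearby cells through paired receptor chains at the cell surface. IL-2, IL-15 and IL-21 share the common γ chain and pass their signal through JAK kinases and STAT factors. IL-6 and IL-11 do so through gp130, and IL-1, IL-18 and IL-33 through the adaptor MyD88. In the heart, ligands and receptors come from resident and infiltrating leukocytes, fibroblasts, endothelial cells and cardiomyocytes, and IL-11 and IL-33 are best known there for their part in fibrosis and tissue injury.

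Total RNA of the myocardium was labelled with 1 dye, and each of 6 mice had its own array, all on 1 slide and read in 1 scan. The mice were male C57BL/6J animals with the *Clk4*-cKO genotype: floxed *Clk4* and an α-MHC-MerCreMer transgene, whose tamoxifen-activated Cre deletes the kinase gene in cardiomyocytes. All had received tamoxifen and an AAV9 vector into the bloodstream. In 3 mice the vector carried NEXN-S437E, a nexilin in which glutamate replaces a serine and imitates its phosphorylated form, and in the 3 controls it carried NEXN-WT. The labels give no age, and no heart with intact *Clk4* was analysed here, so that every comparison is between 2 groups that lack cardiomyocyte CLK4. The tissue was not sorted, and fewer cells of a type and less RNA per cell cannot be told apart in its RNA.

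A probe was tested if 1 group or both had it well above background on each of 3 arrays, which held for 43 interleukin probes of 33 genes and for 22998 probes on the array. Values are the deposited normalized log2 intensities, and differences are NEXN-S437E minus NEXN-WT on that scale, given with the standard error (SE) of the limma fit and its Benjamini-Hochberg adjusted p over all 22998 probes. Values rank the arrays for 1 probe and do not rank genes against each other. From 41.9% to 47.8% of an array's spots were well above background. NEXN-WT replicate 1 was the brightest array and stood apart, with a mean absolute distance of 0.37 and 0.42 log2 units from the other 2 NEXN-WT arrays, which were 0.24 from each other. Over the interleukin probes it was highest of its group in 20 and lowest in 16 of 43. Without it 3 of these probes changed sign, and values without it are given below for some of the probes.

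The tested probes of 4 genes are shown because the clearest differences rest on them. They are the tested pairs of *Il2rb* and *Il15* probes and the single tested probes of *Il11* and *Il21r*. The pairs allow the direction to be compared between probes of 1 gene. Each line gives the last 30 of the 60 bases on the array, 5′ to 3′. Capitals mark a stop codon that ends an open frame through the whole probe.

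Il2rb A_51_P286496 (chr15:78311109-78311168, mm9, minus strand): cagcttctttggggtaacctagcccccttg
Il2rb A_55_P2266178 (chr15:78309771-78309830, mm9, minus strand): tggcatttttgcaattatttcctgtaaagt
Il15 A_66_P133150 (chr8:84855613-84855672, mm9, minus strand): ctcgtctcagacttatttttgcttgcttat
Il15 A_55_P2744693 (chr8:84855813-84855872, mm9, minus strand): attgtccaaatgttcatcaacacgtccTGA
Il11 A_51_P267783 (chr7:4724847-4724906, mm9, minus strand): tcttcctcacttcctacattatttattaaa
Il21r A_55_P2753460 (chr7:132776644-132776703, mm9, plus strand): ttctctacccaaagttctaggcctacgagt

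The *Il2rb* probes lie 1278 bases apart and the *Il15* probes 140 bases apart, so neither pair shares sequence. No genome of the arrays' build was used here, and the probes were not placed in exons or introns.

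The receptor chain *Il2rb* fell in NEXN-S437E hearts, and it was the only 1 of the 43 interleukin probes past an adjusted p of 0.05, against 28 of all 22998 probes (0.122%). At a 2-fold change with an unadjusted p under 0.05, 4 interleukin probes were lower: both of *Il2rb* and those of *Il11* and *Il1b* (2.02% of all probes were lower by this rule). No interleukin probe was higher by it, against 0.604% of all probes. All 4 lower probes were tested only because the NEXN-WT arrays met the rule for testing. Each rose well above background on 0 or 1 NEXN-S437E array. With the filter on all 6 arrays 37 interleukin probes remained, and 0 passed either threshold. That filter drops the 4 lower probes, so it cannot decide whether they fell. The ligand *Il15* had the largest positive differences of the tested interleukins, on 2 probes, and reached neither threshold. Without regard to size, 9 interleukin probes were lower and 2 higher at an unadjusted p under 0.05, and 8.12% and 7.65% of all probes were (1868 and 1760). Scaled to the 75th percentile of each array instead, the split was 10 and 2 interleukin probes and 1550 and 2361 of all probes.

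Most tested interleukin probes leaned to lower values. Of 43, 31 had a difference below 0 and 12 above, or 72.1% below against 46.8% of all probes. Their median difference was -0.27, beside 0.02 over all probes. Without NEXN-WT replicate 1 the 2 medians were -0.18 and 0.01, and 30 of the 43 interleukin probes were below 0. With the filter on all 6 arrays the medians were -0.24 and 0.04. The 11 ligand probes had a median of -0.28 (8 below 0) and the 29 receptor probes one of -0.24 (22 below 0). The groups did not overlap in 14 interleukin probes, 12 of them lower and 2 higher, as in 11.7% and 13.3% of all probes. All 10 receptor probes without overlap were lower. Most single differences were small against their error, as the plot of fold changes shows.

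**Figure D1:**
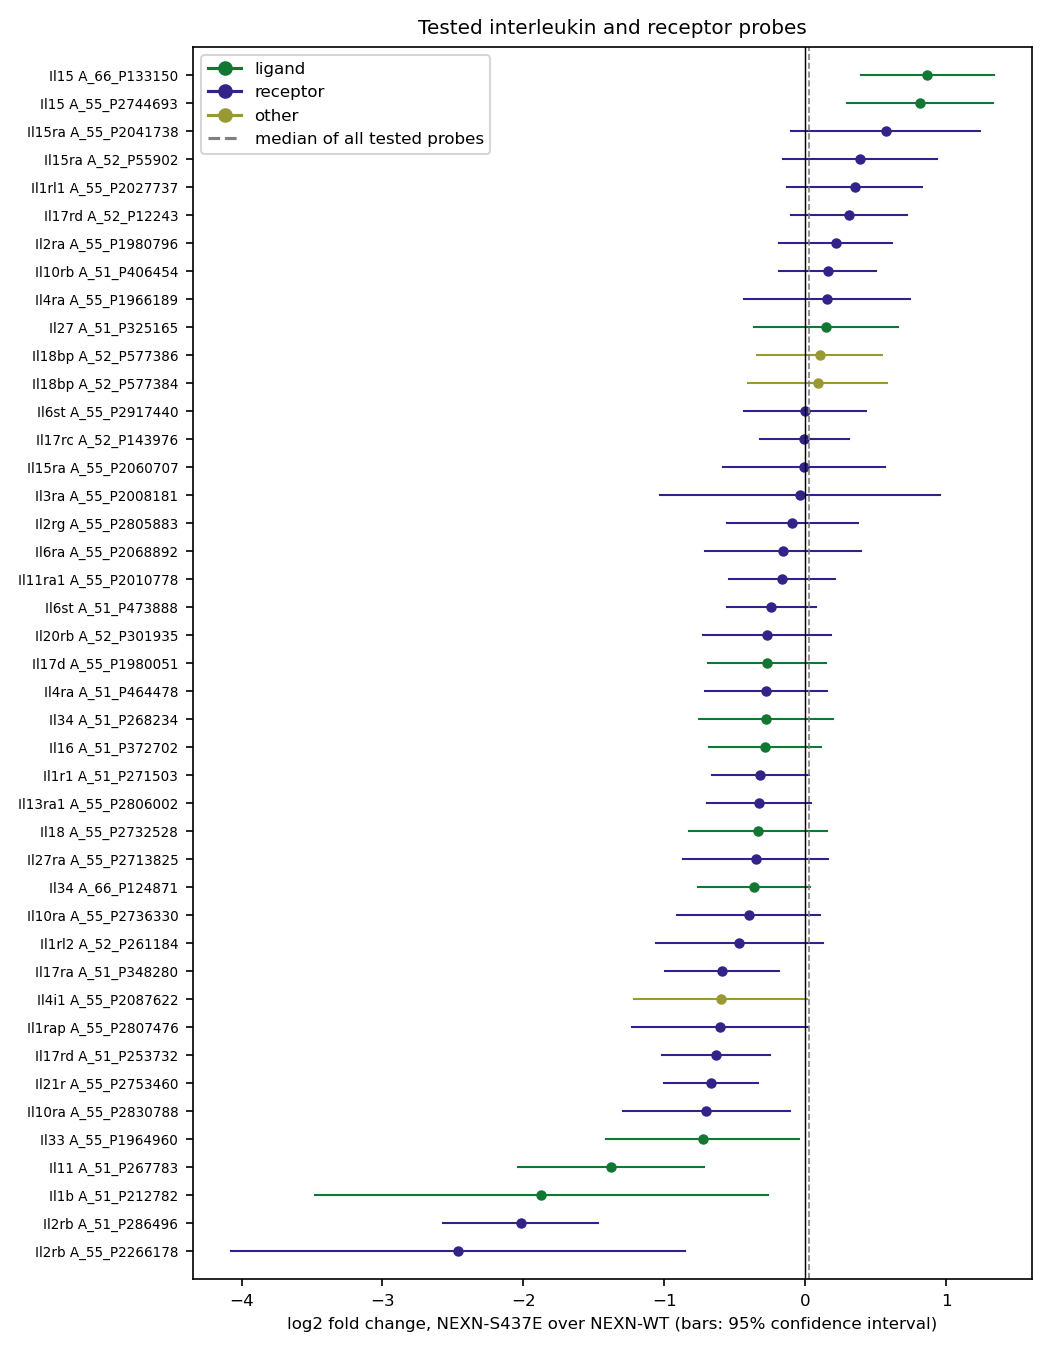
Log2 fold change of each of the 43 tested interleukin and receptor probes (horizontal axis, NEXN-S437E over NEXN-WT), with 95% confidence intervals of the limma fit. Green, blue and olive mark ligands, receptors and other members, and the dashed line is the median of all tested probes, 0.02; 31 points lie below 0, and the *Il2rb*, *Il1b* and *Il11* probes lie farthest from it.

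Among the chains of the common γ family, *Il2rb* encodes the β chain with which T and NK cells receive IL-2 and IL-15. Its probe A_51_P286496 read 5.02, 5.09 and 5.18 with NEXN-WT and 2.63, 3.04 and 3.56 with NEXN-S437E. The NEXN-WT values lay within 0.2 log2 units of each other, and all NEXN-S437E values were below them. The difference was -2.02 (SE 0.23, adjusted p = 0.039 by limma). No NEXN-S437E array had the probe well above background, so its fold change is a bound. Set against the lowest signal that counted as well above background on each of those arrays, *Il2rb* was at least 2.10-fold lower. Bounds for other probes were formed in the same way.

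The other *Il2rb* probe, A_55_P2266178, read 5.66, 5.87 and 5.95 with NEXN-WT and 4.76, 3.68 and 1.64 with NEXN-S437E. The groups did not overlap here either, but the NEXN-S437E values were spread over more than 3 log2 units and were well above background on 1 array. The difference was -2.46 (SE 0.69, adjusted p = 0.190 by limma), and -1.60 without NEXN-S437E replicate 3.

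The call for *Il2rb* at the adjusted threshold was narrow. With 1 array left out, its adjusted p in limma was 0.0501, 0.147 and 0.0764 for NEXN-WT replicates 1, 2 and 3, and 0.0657, 0.150 and 0.0260 for NEXN-S437E replicates 1, 2 and 3. The difference itself stayed between -1.79 and -2.26 in these 6 fits. After normexp background correction, which adds an offset and draws dim probes together, it was -0.43 (adjusted p = 0.137 by limma), with -0.67, -0.29 and -0.38 for the second *Il2rb* probe, *Il11* and *Il1b*.

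Markers of T and cytotoxic cells moved with *Il2rb*. Of 9 tested probes of 6 T cell markers, 7 were lower by at least 2-fold with an unadjusted p under 0.05, and 4 of them passed the adjusted threshold. The summed linear level of these genes was 422 to 655 with NEXN-WT and 149 to 205 with NEXN-S437E. For *Cd3d*, a chain of the T cell receptor complex, probe A_66_P109615 read 7.28, 7.52 and 7.77 against 5.53, 4.39 and 5.12.

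All 3 tested NK and cytotoxic markers, *Nkg7*, *Gzma* and *Gzmb*, were lower by the same rule, with sums of 233 to 720 against 115 to 126. *Klrb1c*, *Ncr1* and *Prf1*, which define NK and cytotoxic cells, were not well above background on any array. Dendritic cell markers summed to 80.3 to 120 against 32.5 to 44.1 (*Clec9a* and *Xcr1* on no array). Fibroblast markers summed to 94438 to 181385 against 60416 to 67613, with 5 of 9 tested probes lower by that rule. Those 5 were all of *Col1a1* or *Col1a2*. *Dcn*, *Lum*, *Pdgfra* and *Tcf21*, at -0.44, -0.99, -0.93 and -0.30, did not pass it. Macrophage markers overlapped (11124 to 16048 against 11642 to 11709) and had no probe past that rule, nor had markers of cardiomyocytes, endothelial cells, B cells, neutrophils or mast cells. The part of these cells in the interleukin differences was not tested.

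**Figure D2:**
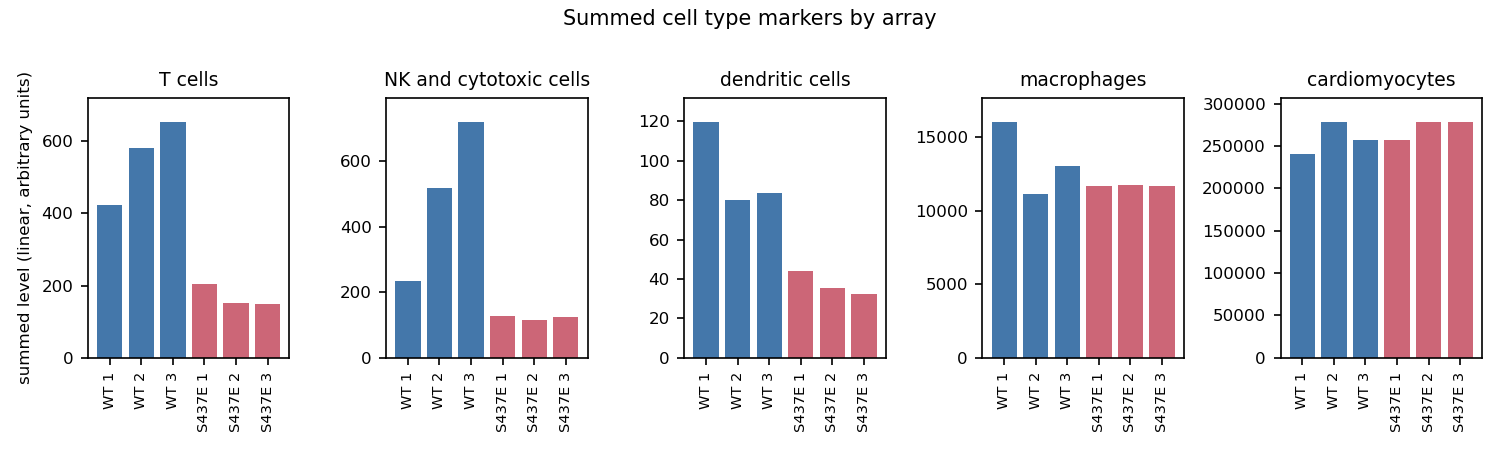
Summed linear level of the marker genes of 5 cell types (vertical axes from 0, arbitrary units, each panel on its own scale) on the 3 NEXN-WT arrays (blue) and 3 NEXN-S437E arrays (red). T cell, NK and cytotoxic, and dendritic cell sums were lower on every NEXN-S437E array than on any NEXN-WT array, while macrophage and cardiomyocyte sums overlapped.

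*Il15* encodes the cytokine that sustains NK cells and memory T cells and signals through IL-2Rβ. Probe A_66_P133150 read 10.18, 10.64 and 10.94 with NEXN-WT and 11.44, 11.51 and 11.41 with NEXN-S437E. Probe A_55_P2744693 read 9.16, 9.59 and 9.97 with NEXN-WT and 10.22, 10.56 and 10.39 with NEXN-S437E. On both, every NEXN-S437E array was above every NEXN-WT array, and NEXN-WT replicate 1 was the lowest. The differences were 0.87 (SE 0.20, adjusted p = 0.152) and 0.81 (SE 0.22, adjusted p = 0.181 by limma).

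With NEXN-WT replicate 1 left out they were 0.66 and 0.61, and with NEXN-WT replicate 3 left out they were 1.05 and 1.01, which is past 2-fold. A dim *Il15* probe, A_55_P2733222, was well above background on 2 arrays of each group and read 4.28 to 5.22 and 4.69 to 5.55. It overlapped and was not tested.

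The other chains of the IL-2 and IL-15 receptors passed no threshold. *Il15ra*, the α chain that presents IL-15 to neighbouring cells, had 3 tested probes with differences of 0.57 (SE 0.29), 0.39 (SE 0.23) and -0.01 (SE 0.25), and overlapping groups on each. These differences were 0.25, 0.13 and -0.14 without NEXN-WT replicate 1. *Il2rg*, the common γ chain itself, read 9.33, 9.47 and 9.87 against 9.76, 9.27 and 9.37, a difference of -0.09 (95% confidence interval -0.56 to 0.38). *Il2ra*, the α chain of the high-affinity IL-2 receptor, which IL-15 does not use, had a difference of 0.22 (SE 0.17, adjusted p = 0.560 by limma). The interval of *Il2rg* leaves room for changes in either direction of under 1.5-fold.

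*Il21r*, the receptor chain for IL-21 on lymphocytes, read 6.02, 5.93 and 5.92 with NEXN-WT and 5.26, 5.13 and 5.49 with NEXN-S437E. Its tested probe was well above background on all 6 arrays, and its groups were separate. The difference was -0.67 (SE 0.14, adjusted p = 0.141 by limma), and -0.63 without NEXN-WT replicate 1. *Il4ra*, shared by the IL-4 and IL-13 receptors, had probes at -0.28 and 0.15 with overlapping groups.

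*Il7r*, the IL-7 receptor of lymphocytes, was too dim to be tested. Its probe A_55_P2736590 read 6.44, 4.40 and 3.67 with NEXN-WT and 3.55, 2.64 and 1.60 with NEXN-S437E, and was well above background on 2 arrays of the first group and none of the second. The lowest NEXN-WT value lay just above the highest NEXN-S437E value, and NEXN-WT replicate 1 lay far above the other arrays, so no bound is given. The ligands *Il2*, *Il4*, *Il7*, *Il9* and *Il21* were well above background on no array.

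**Figure D3:**
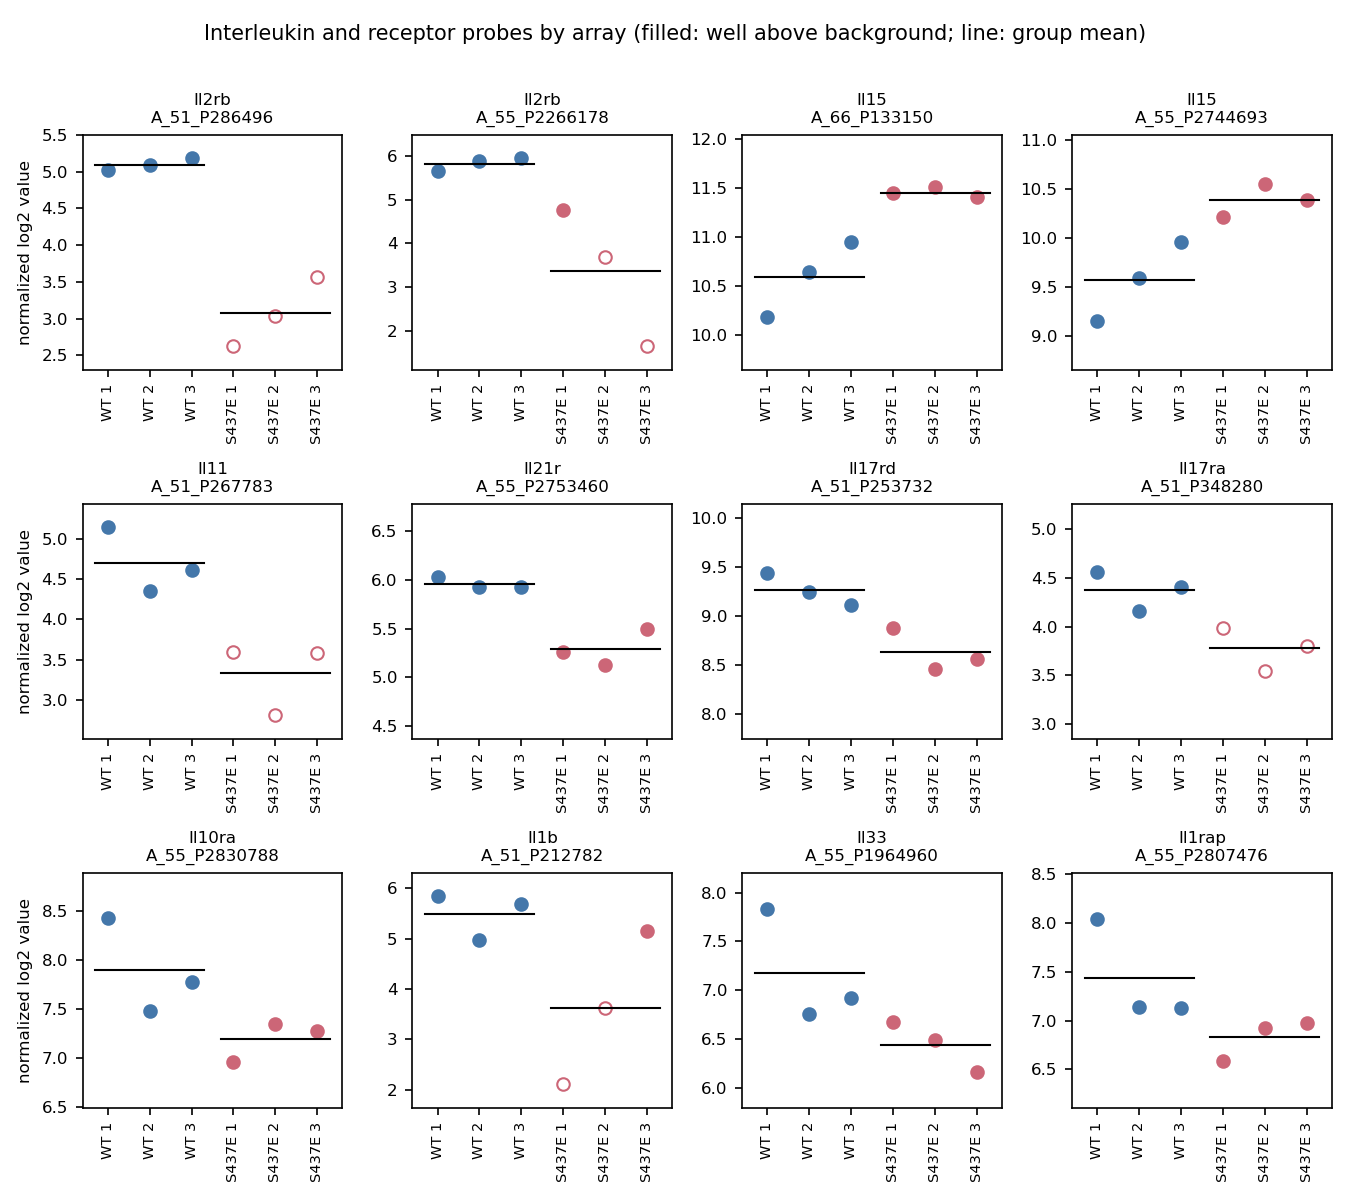
Normalized log2 value (vertical axis, its own range in each panel) of 12 interleukin and receptor probes on each array, NEXN-WT in blue and NEXN-S437E in red. Filled points were well above background, open points were not, and lines are group means; *Il2rb*, *Il11* and *Il21r* separated by group with NEXN-S437E lower, *Il15* with NEXN-S437E higher, and *Il1b* overlapped.

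The gp130 family was led by *Il11*, a cytokine made by fibroblasts and other stromal cells. Probe A_51_P267783 read 5.14, 4.36 and 4.62 with NEXN-WT and 3.59, 2.81 and 3.59 with NEXN-S437E. The groups did not overlap, and the probe was well above background on all NEXN-WT arrays and no NEXN-S437E array. The difference was -1.38 (SE 0.28, adjusted p = 0.135 by limma), and *Il11* was at least 1.60-fold lower by the bound. Without NEXN-WT replicate 1 the difference was -1.16.

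The promoter of *Il11* is shown because AP-1 is known to drive the gene in stromal cells. RefSeq (GRCm38.p6) gives *Il11* 2 start sites in the table used here. The 250 bases before 1 of them (chr7:4778142-4778391, minus strand) hold the AP-1 motif TGANTCA, in capitals, beginning 98 bases before the start. The window of the other start site does not.

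Il11 promoter, 5′ to 3′: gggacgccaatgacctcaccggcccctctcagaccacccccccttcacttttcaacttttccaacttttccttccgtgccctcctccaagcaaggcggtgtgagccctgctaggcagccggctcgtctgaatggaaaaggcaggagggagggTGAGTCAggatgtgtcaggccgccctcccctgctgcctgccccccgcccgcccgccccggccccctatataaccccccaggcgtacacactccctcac

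The same motif, searched on both strands in windows of 300 bases, stands in 7.81% of 32851 promoters of the table. It stands in 3 of the 33 promoters of the 25 tested interleukin genes that the table holds, those of *Il11*, *Il15ra* and *Il16*. The STAT motif TTCNNNGAA stands in 8.30% of all promoters and in 1 of these 33, that of *Il17d*.

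No receptor of this family passed a threshold. *Il11ra1*, the IL-11 receptor chain, read 12.30, 12.13 and 11.83 against 11.82, 12.03 and 11.92, and the groups overlapped (-0.16, SE 0.16). It has a near-identical copy in the mouse genome, *Il11ra2*, and its signal may hold both. *Il6st*, which encodes gp130, had probes at -0.24 (SE 0.13) and -0.00 (SE 0.18), and *Il6ra* was at -0.16 (SE 0.24), or 0.09 without NEXN-WT replicate 1. *Il27ra*, which pairs with gp130, was at -0.35 (SE 0.22), or -0.13 without NEXN-WT replicate 1, and its ligand subunit *Il27* at 0.15 (SE 0.22). The ligand *Il6* was well above background on NEXN-WT replicate 1 alone and read 5.03, 3.53 and 3.33 against 1.53, 1.84 and 1.58.

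In the IL-1 family, *Il1b*, the inflammatory cytokine of macrophages and other myeloid cells, passed the 2-fold rule although its groups overlapped. It read 5.84, 4.98 and 5.68 with NEXN-WT and 2.11, 3.61 and 5.15 with NEXN-S437E. NEXN-S437E replicate 3 lay within the NEXN-WT range and was the only array of its group where the probe was well above background. The difference was -1.87 (SE 0.69, adjusted p = 0.266 by limma). Without NEXN-WT replicate 1 its unadjusted p in limma was 0.0873, with array weights its difference was -0.80, and with the slide row as a block, where it rests on NEXN-S437E replicate 1, -3.39.

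*Il33*, an alarmin held in the nuclei of stromal cells, read 7.83, 6.76 and 6.93 with NEXN-WT and 6.67, 6.49 and 6.17 with NEXN-S437E. The groups did not overlap, but NEXN-WT replicate 1 lay well above the other 5 arrays. The difference was -0.73 (SE 0.29, adjusted p = 0.298 by limma), and -0.40 without that array. Its receptor *Il1rl1*, known as ST2, was at 0.35 (SE 0.21, adjusted p = 0.441 by limma) with overlapping groups.

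*Il1rap*, the accessory chain that the receptors of IL-1, IL-33 and IL-36 share, read 8.04, 7.14 and 7.12 against 6.58, 6.93 and 6.97. Here too NEXN-WT replicate 1 was the highest array, and the difference of -0.60 (SE 0.27) became -0.30 without it. *Il1r1*, the signalling IL-1 receptor, read 8.63, 8.27 and 8.29 against 8.14, 8.07 and 8.03, a difference of -0.32 (SE 0.15, adjusted p = 0.346 by limma) with separate groups. This difference was -0.20 without NEXN-WT replicate 1. *Il1rl2*, the IL-36 receptor, was at -0.47 (SE 0.25) and overlapped. *Il18* was at -0.34 (SE 0.21), or -0.18 without NEXN-WT replicate 1, and both probes of *Il18bp* were near 0, at 0.09 and 0.10.

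Among the IL-17 receptors, *Il17rd*, a chain that also restrains fibroblast growth factor signalling, read 9.44, 9.24 and 9.12 against 8.88, 8.46 and 8.56 on probe A_51_P253732, with no overlap and a difference of -0.63 (SE 0.16, adjusted p = 0.173 by limma). On its probe A_52_P12243 it read 6.30, 6.89 and 6.70 against 7.01, 6.94 and 6.88, and the difference was 0.31 (SE 0.17). The 2 *Il17rd* probes thus had opposite signs.

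*Il17ra*, the chain common to IL-17 receptors, read 4.56, 4.15 and 4.40 against 3.99, 3.55 and 3.81 and no NEXN-S437E array had it well above background. Its groups did not overlap. Its difference was -0.59 (SE 0.17, adjusted p = 0.200 by limma), a bound of at least 1.27-fold lower. *Il17rc* was at -0.01 (SE 0.13) and the ligand *Il17d* at -0.27 (SE 0.18), and the other IL-17 ligands were well above background on no array.

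Of the IL-10 family, *Il10ra*, the ligand-binding chain on leukocytes, read 8.43, 7.48 and 7.77 with NEXN-WT and 6.96, 7.35 and 7.27 with NEXN-S437E on probe A_55_P2830788. The groups were separate, with NEXN-WT replicate 1 the highest array. The difference was -0.70 (SE 0.25, adjusted p = 0.259 by limma), or -0.43 without that array, and the other *Il10ra* probe was at -0.40 (SE 0.22) with overlapping groups. *Il10rb*, the chain shared with the IL-22 receptor, was at 0.16 (SE 0.15), and *Il20rb* at -0.27 (SE 0.20).

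The remaining tested genes overlapped or differed by little. *Il13ra1*, an IL-13 receptor chain, read 10.36, 10.01 and 9.99 against 9.64, 9.83 and 9.91, separate groups with a difference of -0.33 (SE 0.16, adjusted p = 0.365 by limma). This difference was -0.21 without NEXN-WT replicate 1. *Il34*, a second ligand of the CSF1 receptor of macrophages, had probes at -0.36 (SE 0.17) and -0.28 (SE 0.20). *Il16*, a chemoattractant of CD4+ cells, was at -0.28 (SE 0.17), *Il4i1* at -0.60 (SE 0.26) and *Il3ra*, the IL-3 receptor α chain, at -0.04 (SE 0.42). Of the 9 genes with more than 1 tested probe, 6 had all probes of 1 sign, and *Il15ra*, *Il17rd* and *Il4ra* did not. Without NEXN-WT replicate 1 the *Il4ra* probe at 0.15 turned to -0.03, the same sign as its other probe, and the *Il6st* probe at -0.00 turned to 0.08, opposite to its other probe.

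Most of the interleukin genes could not be followed in this tissue. No probe was well above background on any array for 41 of the 82 genes: 28 ligands, 12 receptors and *Il1bos*. In probes, that was 92 of 148, while 37 were well above background on all 6 arrays. The ligands among them include *Il1a*, *Il10*, *Il12a*, *Il12b*, *Il13* and *Il17a*, and the receptors *Il12rb2*, *Il1r2* and *Il18rap*. For these the arrays show only that the signal was not above background.

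A further 13 probes were well above background on some arrays without meeting the rule for testing. Of these, 8 were so on NEXN-WT arrays alone, 1 on a NEXN-S437E array alone and 4 on arrays of both groups. The brightest array, NEXN-WT replicate 1, was the only such array for 6 of the 8: those of *Il6*, *Il12rb1*, *Il18r1*, *Il22ra2* and the second probes of *Il1rap* and *Il33*. For *Il18r1*, the IL-18 receptor, it read 4.19 and the other 5 arrays 1.60 to 1.80.

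**Figure D4:**
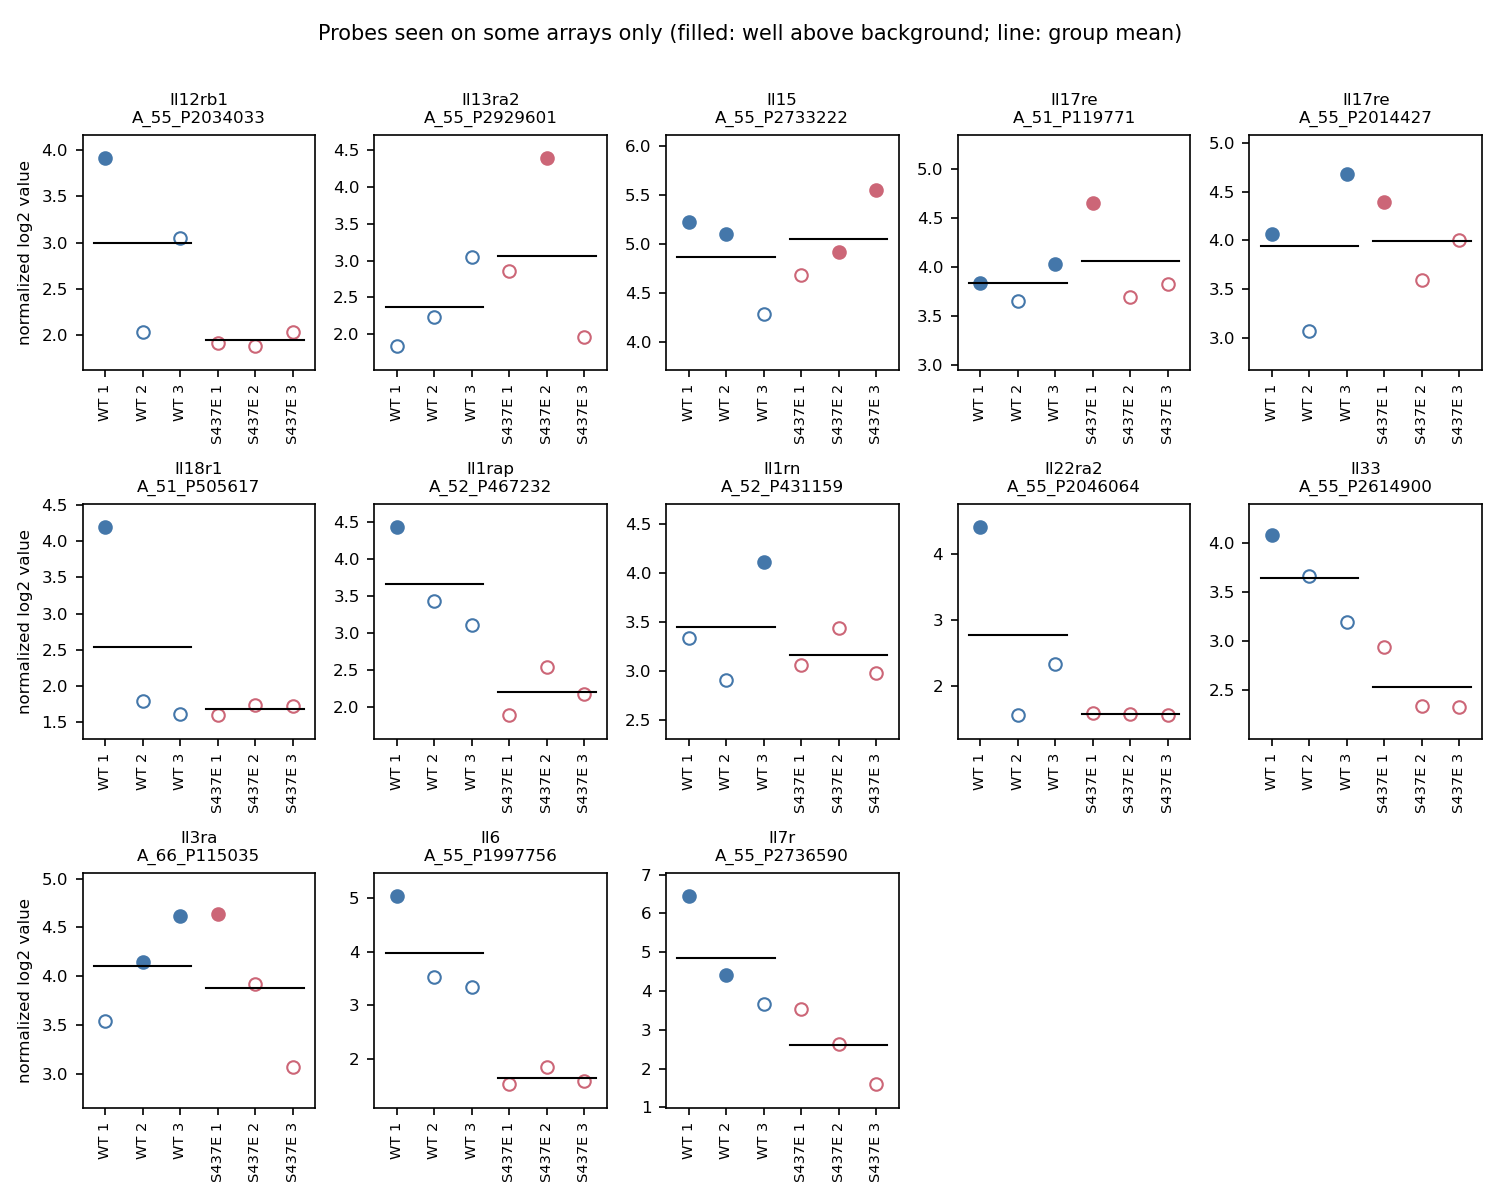
Normalized log2 value (vertical axis, its own range in each panel) on each array for the 13 probes well above background on some arrays that were not tested, NEXN-WT in blue and NEXN-S437E in red. Filled points were well above background and lines are group means; in 6 panels the only filled point is NEXN-WT replicate 1.

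The genes that share these pathways without an interleukin symbol were read from 5 lists of 71 genes, of which 61 had a tested probe (100 probes). None passed the adjusted threshold in limma, and 16 (16%) had an unadjusted p under 0.05, against 15.8% of all probes. At the 2-fold rule 2 probes were lower and 2 higher, against 2.02% and 0.604% of all probes. The lower ones are not reported here.

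Both higher probes were of *Lepr*, the leptin receptor, whose structure resembles gp130. Probe A_55_P2506350 read 4.89, 5.40 and 5.91 against 7.10, 6.24 and 6.55, a difference of 1.23 (SE 0.31, adjusted p = 0.166 by limma). Probe A_55_P2177911, seen on the NEXN-S437E arrays only, was at 1.78 (SE 0.32, adjusted p = 0.126 by limma) and at least 1.44-fold higher by the bound, and its remaining tested probe was at 0.51 (SE 0.17). Of the shared receptors and ligands not past that rule, those with the smallest p were *Lifr*, a partner of gp130, at 0.73 with its other tested probes at 0.29 and 0.20, *Csf2rb2*, an IL-3 receptor β chain, at -0.98, and the cytokine *Osm* at -0.64. No NEXN-S437E array had the *Osm* probe well above background, and by the bound it was at least 1.40-fold lower (adjusted p = 0.216 by limma).

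Downstream of the receptors no probe passed either threshold. Of 16 JAK-STAT probes, 11 were below 0 and 2 (12.5%) had an unadjusted p under 0.05 in limma, with *Stat2* at -0.54 (SE 0.16) and *Stat3* at -0.37 (SE 0.19) and -0.06 (SE 0.21) on its tested probes. Among 33 probes of feedback inhibitors, 4 (12.1%) had an unadjusted p under 0.05, so that in both lists the share was below the 15.8% of all probes. *Socs1*, an inhibitor of JAK kinases, read 7.10, 7.13 and 6.98 against 5.63, 6.25 and 6.49, a difference of -0.95 (SE 0.22, adjusted p = 0.155 by limma) with separate groups. *Ptpn6*, the phosphatase SHP-1, was at 0.97 (SE 0.17) on probe A_52_P666779 and at -0.09 and -0.23 on its other tested probes, and *Socs4* had probes at -0.50 (SE 0.17), -0.21 (SE 0.19) and 0.07 (SE 0.22).

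The adaptors of the IL-1 and IL-17 receptors had a median of 0.09 over 20 probes, none with an unadjusted p under 0.05, and *Myd88*, the adaptor of the IL-1 receptors, was at -0.28 (SE 0.13). *Tab2* had probes at 0.35 (SE 0.17), -0.12 (SE 0.16) and -0.07 (SE 0.12), and *Irak2* at 0.25 (SE 0.14) and 0.12 (SE 0.25). Of the genes that process IL-1 family cytokines, *Pycard*, the inflammasome adaptor, was at 0.31 (SE 0.16), *Casp8* at -0.26 (SE 0.14) and *Casp1*, which cleaves IL-1β and IL-18, at -0.52 (SE 0.32).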

How the data were processed

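Total RNA of 6 hearts was measured on 1-colour Agilent mouse arrays (probe coordinates on mm9), and per the submitters' notes the authors extracted the arrays with Agilent Feature Extraction 10.7.1.1. The deposited array files hold spot intensities, background-subtracted and not normalized between arrays. The authors also deposited normalized log2 values per probe, whose 6 columns have identical distributions when sorted, as quantile normalization gives; the software behind them is not given in the sources used here. These log2 values were analysed. A probe counted as well above background on an array where over 0.5 of its spots, outliers left out, carried that mark. No spot was saturated. Precision is set by the small number of arrays and by how far a probe rises above background.

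Groups and replicates came from the labels. limma 3.58.1 (lmFit and eBayes, R 4.3.3, data.table, version 1.17.8) compared all 6 arrays, with Benjamini-Hochberg adjustment over the 22998 tested probes. The script was tested on simulated data with 200 changed probes. Thresholds were an adjusted p of 0.05, and a 2-fold change with an unadjusted p of 0.05. Gene names were those of the array, and all 82 matched RefSeq. Summaries and plots were made in Python 3.11.15 with pandas 2.3.3, numpy 2.4.6 and matplotlib 3.10.9.

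Named were all interleukin probes past a threshold, then the 30 tested genes with the largest absolute difference (1 probe each, of the smallest p), every gene with more than 1 tested probe, and, of the related genes, those past the 2-fold rule and up to 3 others per list with the smallest p, save a few that are not reported here. *Il7r*, *Il6*, *Il18r1*, *Il12rb1*, *Il22ra2*, *Il3ra* and *Il17rc*, with the ligands and receptors seen on no array, were named after their values were seen. The members, lists and tests were chosen with earlier results of these data known. The alternatives were the 75th percentile scaling of the processed intensities over all or over detected probes, normexp (offset 50) with quantile normalization, no filter, a filter on all 6 arrays, the methods' t-test, an intensity trend, array weights, slide row and replicate number as blocks, 1 probe per gene, and each array left out.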

Additional observations from a re-analysis of the deposited data

How the results depend on the processing

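The median difference of the interleukin probes stayed below 0 under every alternative run, from -0.05 without a filter on dim probes to -0.32. The single adjusted call, *Il2rb*, became 0 calls with normexp, without a filter, with the filter on all 6 arrays (which drops that probe), with the methods' t-test, with the replicate block and with 1 probe per gene (which takes the other *Il2rb* probe), and 7 with array weights; it ranged from 0 to 1 with each array left out. The 4 lower probes at the 2-fold rule became 0 with normexp, 8 without a filter, 0 with the filter on all 6 arrays and 2 with the methods' t-test, and 3 to 4 with an array left out. The 0 higher probes became 1 without a filter and ranged from 0 to 2, both *Il15* probes being called without NEXN-WT replicate 3. The related genes went from 4 calls to 2 with normexp, 7 with the slide row block and 1 with 1 probe per gene, and from 3 to 7 with an array left out, 7 being without NEXN-S437E replicate 2. Over all probes, the adjusted calls went from 28 to 0 without a filter and with the t-test, 4 with the filter on all 6 arrays, 17 with normexp, 12 with the replicate block, 48 with an intensity trend and 1217 with array weights, and from 5 to 126 with an array left out. Lower and higher probes at the 2-fold rule went from 465 and 139 to 165 and 24 with normexp, and to 859 and 459 without a filter. *Il6ra* turned from -0.16 to 0.0403 with array weights and ranged from -0.35 to 0.0928 with an array left out (above 0 without NEXN-WT replicate 1), and *Il18bp* probe A_52_P577386 ranged from -0.0078 to 0.29 (below 0 without NEXN-WT replicate 2). The cause of these moves was not tested, save where the alternative drops the probe.

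The groups share replicate numbers as numbers only: deviations of same-numbered arrays correlated at -0.14, -0.03 and -0.16 over probes. With the replicate block the adjusted p of *Il2rb* was 0.0931, the 4 lower calls stayed at 4, and 0 interleukin probes passed the adjusted threshold in limma, with 11 at an unadjusted p under 0.05. The slide row block rests on NEXN-S437E replicate 1 against the 3 NEXN-WT arrays, since slide row 2 held NEXN-S437E arrays alone. In it *Il2rb* was at -2.47 on A_51_P286496 and -1.06 on A_55_P2266178, *Il11* at -1.11 and *Il15* at 0.86 and 0.64.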
